A study of Mus musculus with 2 samples.

Results

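Respiratory chain and ATP synthase genes were described across the clusters of cells from mouse primary hepatocyte preparations. The members were all genes whose symbol in the authors' marker tables starts with Nduf, Cox, Atp5, Uqcr or mt-, or is one of Sdha to Sdhd. This rule found 58 of the 2788 genes named in either table. Of these, 57 were in the table that compares the 5 hepatocyte clusters with each other (1609 genes) and 2, Sdha and Cox6b2, were in the table that compares all 12 clusters (1755 genes). The members comprised 26 subunits of complex I, 3 of complex II, 5 of complex III, 10 of complex IV and 11 of complex V, and 3 assembly or organizing factors (Ndufaf8, Cox17 and Cox7a2l).

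The hepatocytes came from wild type BALB/c mice, male, fasted and 8 to 10 weeks old by the study's methods, that were injected intraperitoneally each day for 5 days with PBS or with rIL-33, the recombinant form of the alarmin cytokine IL-33, at 0.5 µg. Each condition gave 1 droplet-based 3′ scRNA-seq library, and the number of mice behind each library is not given in the sources used here. The livers were perfused with a digestive enzyme to free the cells, which were loaded without sorting. Both libraries are pooled in the tables, so PBS and rIL-33 could not be set apart, no spread between replicates is known, and no difference was tested.

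Oxidative phosphorylation takes place at the inner membrane of the mitochondrion. Complex I (NADH dehydrogenase) and complex II (succinate dehydrogenase) feed electrons into ubiquinone, complex III passes them to cytochrome c and complex IV (cytochrome c oxidase) to oxygen, while complex V (ATP synthase) uses the resulting proton gradient to make ATP. Hepatocytes rely on this chain for gluconeogenesis, urea synthesis and fatty acid oxidation. The subunits of complexes I, III, IV and V are encoded partly in the nucleus and partly in mitochondrial DNA, and those of complex II in the nucleus alone.

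All members were of the nuclear genome. No symbol began with mt-, so the mitochondrially encoded subunits were not analysed here. In the GENCODE M21 annotation of GRCm38 (mm10), 55 of the 58 members lay on autosomes and 3 on the X chromosome (Ndufa1, Ndufb11 and Cox7b), over 18 different chromosomes in all, and 0 on the mitochondrial chromosome.

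Each row of a table pairs a gene with a cluster and gives the percentage of cells in which its value was above 0, inside the cluster and in the cells it was compared with. This percentage is called the share below. A gene was listed for a cluster only if its mean was higher there, by at least 0.25 on the log2 scale, and if the larger of both shares was at least 25%. A gene that is not listed can therefore still be expressed. The share also goes up with the number of transcripts counted per cell. Depth is unknown for both libraries and for single cells, and its part in the differences below was not tested. Listing cannot check the hepatocyte label, since the hepatocyte table holds only differences among hepatocyte clusters. The hepatocyte marker Alb (albumin) had a value in 100% of the cells both inside and outside the clusters for which it was listed, in the table of all cells as well.

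The 10 members listed for a pair of clusters, and all other genes so listed, also fix the relative sizes of the clusters, because the share over all hepatocytes must come out the same from each row. From 486 such genes, Hepatocyte1 made up 55.6% of the hepatocytes, Hepatocyte4 18.1%, Hepatocyte2 14.9%, Hepatocyte3 10.1% and Hepatocyte5 1.47%. With these sizes, a share over all hepatocytes was computed for each of the 57 members in the hepatocyte table. By the median over the genes that passed the listing limits, complexes III and IV were found in the most cells and complex II in the fewest, although Ndufaf8 (22.1%) and Uqcrc2 of complex III (23.1%) lay below each of the complex II genes.

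**Figure D1:**
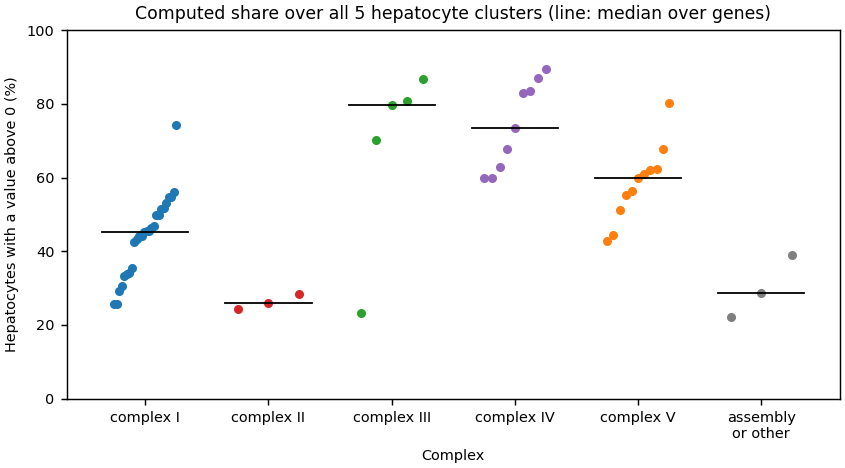
Computed share of all hepatocytes with a value above 0 (y axis, percent) for the 57 members of the hepatocyte table, by complex (x axis); each point is 1 gene and the line is the median over genes. Complexes III and IV sit highest, with medians of 79.8% and 73.4%, and complex II lowest, at 25.8%.

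Complex III had a median share of 79.8% over its 5 genes. Its highest value was 86.8% for Uqcrq, a small subunit next to the cytochrome b core, and its lowest 23.1% for Uqcrc2, a large core protein on the matrix side. Complex IV, with 9 genes in this table, ranged from 59.9% for Cox5b to 89.4% for Cox6c, with a median of 73.4%. All 9 are nuclear subunits that surround the mitochondrially encoded catalytic core.

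Complex V ranged from 42.8% for Atp5c1, the γ subunit of the rotating stalk, to 80.3% for Atp5e, the ε subunit of the same stalk, and its median was 59.9%. The 26 genes of complex I ranged from 25.6% for Ndufs4 to 74.3% for Ndufb9, with a median of 45.3%. Within complex I the medians were 33.3% for 5 genes of the NADH-oxidizing N module, 42.9% for 4 genes of the ubiquinone-reducing Q module and 45.5% for 17 genes of the proton-pumping membrane arm. The ranges of the 3 modules overlapped. In complex II the values lay close together, at 28.4% for Sdha, 25.8% for Sdhb and 24.3% for Sdhc. Without replicates, the order of neighbouring genes in these ranges cannot be told apart from error.

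The members were unevenly spread over the clusters. Hepatocyte1 listed 39 of the 57, Hepatocyte2 listed 7, Hepatocyte3 listed 16, Hepatocyte4 listed 4 and Hepatocyte5 listed 1. As percentages of the members these counts are 68.4%, 12.3%, 28.1%, 7.02% and 1.75%. Of all 1609 genes of the table, 10.6% were listed for Hepatocyte1, 3.48% for Hepatocyte2, 7.64% for Hepatocyte3, 54.7% for Hepatocyte4 and 54.3% for Hepatocyte5. The members thus stood above the share of all genes in Hepatocyte1, Hepatocyte2 and Hepatocyte3, and below it in Hepatocyte4 and Hepatocyte5. They were 22.9% of the 170 genes listed for Hepatocyte1 and 3.54% of the genes of the table. No test was made of these shares, since genes are not replicates.

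**Figure D2:**
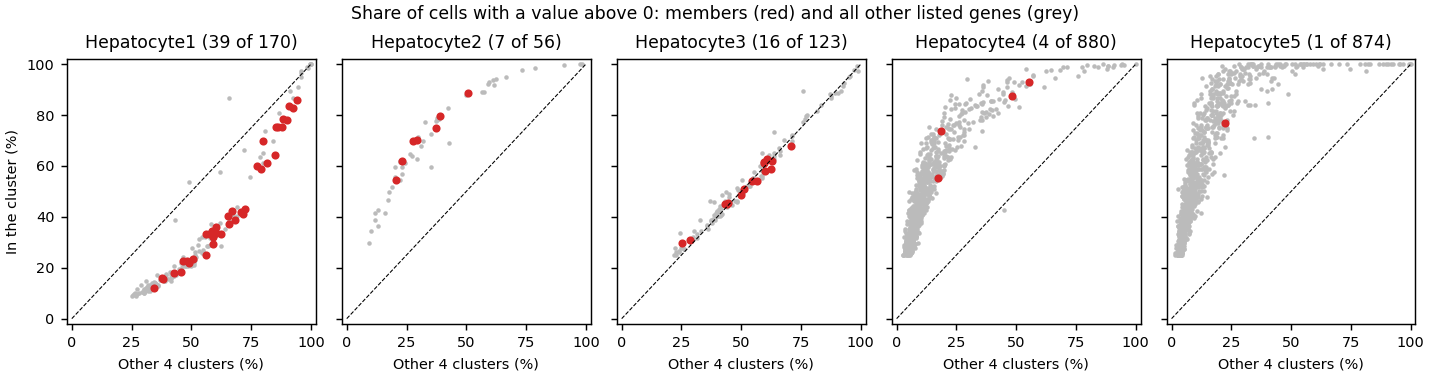
Cells of the cluster with a value above 0 (y axis, percent) against the share in the other 4 hepatocyte clusters (x axis, percent) for every gene listed for each hepatocyte cluster, with the members in red, the other genes in grey, and a dashed line where both shares are equal. The 39 members of Hepatocyte1 lie below the line within the band of the other genes, those of Hepatocyte3 lie on it, and those of Hepatocyte2, Hepatocyte4 and Hepatocyte5 lie above it.

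In Hepatocyte1 every one of the 39 members was detected in a smaller share of the cells than in the other 4 hepatocyte clusters, although each was listed there for a higher mean. The same held for 94.1% of all 170 genes listed for this cluster (160 genes), so a lower share was not particular to the members. The difference in share, cluster minus other hepatocytes, ranged from −31.1 to −7.5 percentage points over the members, with a median of −24.4 against −22.85 over all rows of the cluster. Divided the other way, the share outside the cluster was between 1.09 and 2.82 times that inside, with a median of 1.71, and it was over 2 times as high for 11 members.

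**Figure D3:**
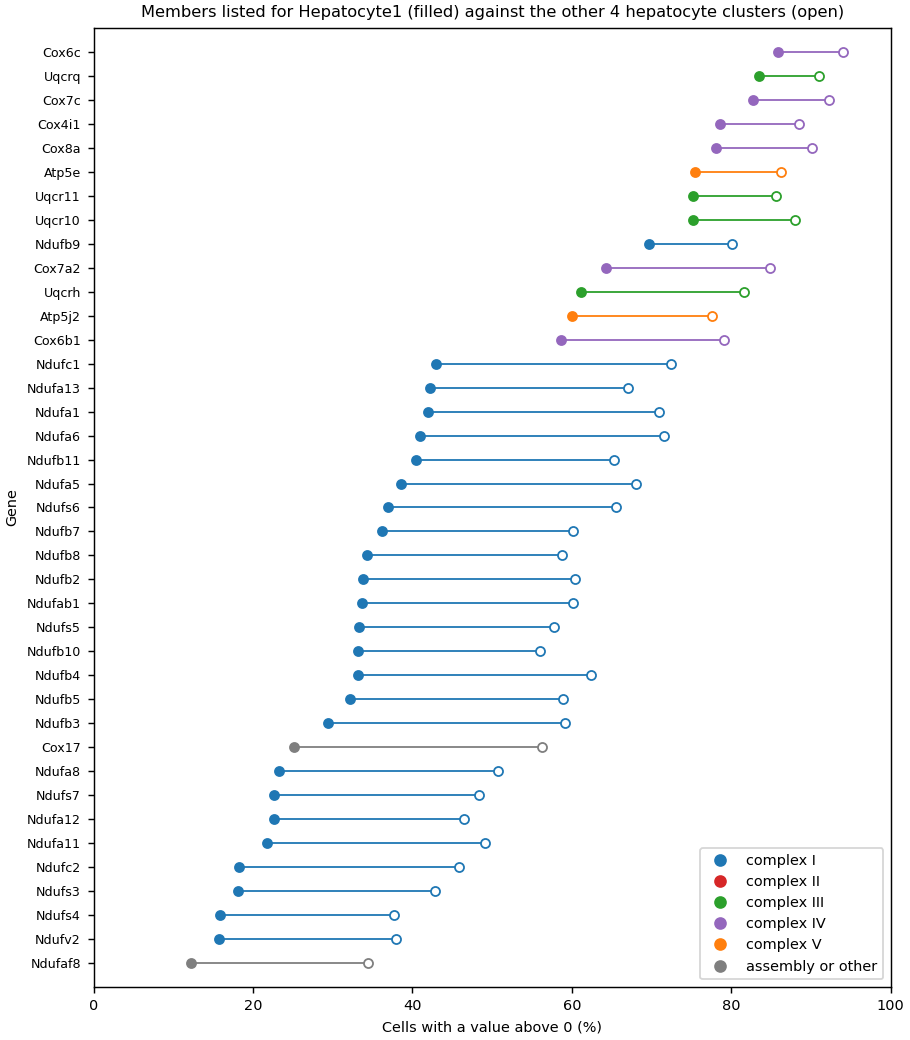
Cells with a value above 0 (x axis, percent) for the 39 members listed for Hepatocyte1 (y axis, ordered by the share in the cluster), with filled points for Hepatocyte1, open points for the other 4 hepatocyte clusters together, and colours for the complex. Every filled point lies to the left of its open point. In the cluster, 24 complex I genes lie between 15.7% and 43.0%. Ndufb9, also of complex I, lies at 69.7%, within the 58.7% to 85.8% of the genes of complexes III, IV and V.

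Complex I made up 25 of these 39 genes. Only Ndufa7 among its 26 members was not listed for Hepatocyte1. The largest gap was that of Ndufa6, a small accessory subunit of the Q module, with a value in 41.0% of Hepatocyte1 cells and 71.6% of the other hepatocytes. Ndufs7 and Ndufs3, core subunits of the same module, had 22.7% against 48.3% and 18.1% against 42.8%. In the N module, Ndufv2, an iron-sulfur subunit of the electron input, had 15.7% against 38.0%, and Ndufs4, an accessory subunit needed for a stable N module, had 15.9% against 37.7%. These were the lowest shares of any complex I gene in the cluster.

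The membrane arm spanned a wider range. Ndufc2 had a value in 18.3% of Hepatocyte1 cells and 45.8% of the others, and Ndufc1 in 43.0% and 72.4%. Ndufb9, an accessory subunit at the far end of the arm, stood apart from all other complex I genes, with 69.7% in the cluster, 80.1% outside it and the smallest gap of the complex (−10.4 percentage points). Leaving it aside, the 24 other complex I genes had shares between 15.7% and 43.0% in Hepatocyte1. The median gap was −23.05 percentage points for 4 N module genes, −27.55 for 4 Q module genes and −26.6 for 17 membrane arm genes, which included Ndufb9.

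The 12 genes of complexes III, IV and V listed for Hepatocyte1 had shares between 58.7% and 85.8% there, above those 24 complex I genes. Ndufb9, left aside because it stood apart, lay within this range at 69.7%. This contrast covers only genes listed for Hepatocyte1 and not the complexes as a whole. Among the genes not listed for it, Uqcrc2 of complex III had 22.3% in the clusters other than Hepatocyte5. Atp5c1 of complex V had 37.2% in those other than Hepatocyte2. Over all hepatocytes, the range of complex I overlapped with those of complexes III, IV and V. Of complex III in Hepatocyte1, Uqcrh, the hinge protein that helps cytochrome c dock, had 61.2% against 81.6%. Uqcrq had the smallest gap of all members there, 83.5% against 91.0%. The other 2, Uqcr10 and Uqcr11, had 75.2% each, against 88.0% and 85.6%. The median gap of the 4 genes was −11.6 percentage points.

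Complex IV contributed 6 genes with a median gap of −10.95 percentage points. Cox7a2 had the largest, with 64.3% against 84.8%, followed by Cox6b1 with 58.7% against 79.1%. Cox6c had the smallest, with 85.8% against 94.0%, and Cox4i1, Cox7c and Cox8a lay between them. Of complex V, Atp5j2, subunit f of the membrane part, had 60.0% against 77.6%, and Atp5e had 75.5% against 86.3%. A gene that is already detected in most cells has less room for a gap in share, and the part of this limit in these gaps was not tested. No complex II gene was listed for Hepatocyte1.

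Of the assembly factors, Cox17, the copper chaperone that supplies cytochrome c oxidase, had 25.1% against 56.2%, the largest gap of the 39 members. Ndufaf8, an assembly factor of complex I, had 12.2% against 34.4%, the lowest share of any member in the cluster and the largest ratio (2.82).

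Hepatocyte2 listed 7 members, and all 7 were detected in more of its cells than of the other hepatocytes, as were all 56 genes listed for it (100%). They belonged to complexes I, II and V. Their differences lay between 33.6 and 42.1 percentage points with a median of 38.7, against 33.65 over all 56 genes listed for the cluster.

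Of complex I, Ndufs7 (chr10:80249121-80256794), which carries the last iron-sulfur cluster before ubiquinone, had a value in 69.9% of Hepatocyte2 cells and 27.8% of the others, the largest difference of the 7. Ndufs3 (chr2:90894634-90904827) had 62.0% against 23.3%. Ndufa8 (chr2:36036326-36049406) and Ndufb8 (chr19:44548572-44555440), accessory subunits of the membrane arm, had 70.1% against 29.4% and 79.7% against 39.2%. Sdhb (chr4:140961203-140979193), the iron-sulfur subunit of succinate dehydrogenase, had 54.4% against 20.8%. Of complex V, Atp5c1 (chr2:10056016-10080510) had 74.8% against 37.2%, and Atp5f1 (chr3:105942698-105960099), subunit b of the peripheral stalk that holds the catalytic head still, had 88.6% against 50.8%. These coordinates are whole gene spans in GENCODE M21 on GRCm38.

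Hepatocyte4 listed 4 members, 2 of complex II and 2 of complex V. All 4 had a higher share in the cluster, as did 99.8% of the genes listed for it, by a median of 38.4 percentage points against 33.1 over all 880 genes. Sdha (chr13:74322254-74350280), the flavoprotein that oxidizes succinate to fumarate in the citrate cycle, had the largest difference of any member in any hepatocyte cluster, with 73.7% of Hepatocyte4 cells against 18.4% of the others. Sdhc (chr1:171127165-171150603), a membrane anchor of the same complex, had 55.1% against 17.5%. Atp5a1, the α subunit of the catalytic head, had 87.3% against 48.1%, and Atp5md (chr19:47083464-47090647), a small membrane subunit, had 92.9% against 55.5%. All 3 complex II genes of the table were thus listed with a higher share, Sdha and Sdhc for Hepatocyte4 and Sdhb for Hepatocyte2 and Hepatocyte3.

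Hepatocyte5, the smallest cluster, listed Uqcrc2 (chr7:120635176-120659524) and no other member. Uqcrc2 had a value in 76.8% of Hepatocyte5 cells and 22.3% of the others, and 99.9% of the genes listed for the cluster also had a higher share in it. The difference of 54.5 percentage points compares with a median of 42.95 over all 874 genes listed for this cluster. No complex I, II, IV or V gene passed the listing limits in Hepatocyte5.

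**Figure D4:**
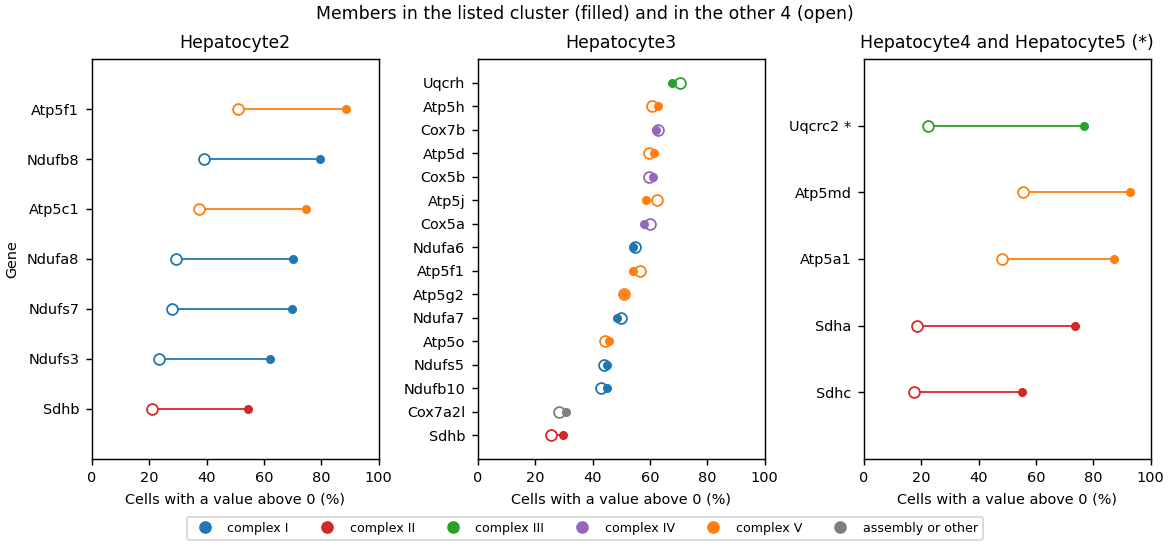
Cells with a value above 0 (x axis, percent) for the members (y axis) listed for Hepatocyte2 (left), Hepatocyte3 (middle) and Hepatocyte4 or, with an asterisk, Hepatocyte5 (right), with filled points for the cluster, open points for the other 4 hepatocyte clusters together and colours for the complex. Filled and open points are at least 33.6 percentage points apart in the left and right panels and at most 4.2 apart in the middle one.

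Hepatocyte3 differed in that its 16 members had almost the same share inside and outside the cluster. The differences ran from −3.8 to 4.2 percentage points with a median of 0.6, against 1.0 over all 123 genes listed for this cluster. The share was higher in the cluster for 8 members, lower for 7 and equal for Atp5g2 (51.1%), a gene for the c subunit of the rotor ring. Of all genes listed for Hepatocyte3, 64.2% had a higher share and 34.1% a lower one.

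Complex V was the largest group here, with 6 genes. Atp5h, a peripheral stalk subunit, had 62.7% against 60.7%, and Atp5d, the δ subunit of the central stalk, had 61.5% against 59.7%. Atp5j, also of the peripheral stalk, had the lowest difference, with 58.7% against 62.5%. Atp5f1 had 54.0% against 56.7%, and Atp5o, the subunit that joins the stalk to the head, 45.6% against 44.4%. Reads of Atp5o may be uncertain, since the annotation used here holds 2 overlapping records under this symbol. Whether the authors' counts were affected was not tested.

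The other complexes showed the same small differences. Of complex IV, Cox7b had 62.1% against 62.9%, Cox5b 61.2% against 59.7% and Cox5a 58.1% against 60.1%. Of complex I, Ndufa6, Ndufa7, Ndufs5 and Ndufb10 lay between −1.5 (Ndufa7, 48.5% against 50%) and 1.8 percentage points (Ndufb10, 44.9% against 43.1%). Sdhb had the highest difference, with 29.6% against 25.4%. Uqcrh had 67.8% against 70.6%, and Cox7a2l, a factor that joins complexes III and IV into supercomplexes, had 30.9% against 28.4%. Sdhb, at 4.2 percentage points, was thus the widest of these small differences.

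Of the 57 members in the hepatocyte table, 47 were listed for 1 cluster and 10 for a pair of clusters. For the latter, the share in the remaining 3 clusters as a whole could be solved from the cluster sizes, and the rows of the same gene gave a share over all hepatocytes within 0.0515 percentage points of each other. The pairs were Hepatocyte1 with Hepatocyte2 (4 genes), Hepatocyte1 with Hepatocyte3 (4 genes) and Hepatocyte2 with Hepatocyte3 (2 genes).

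**Figure D5:**
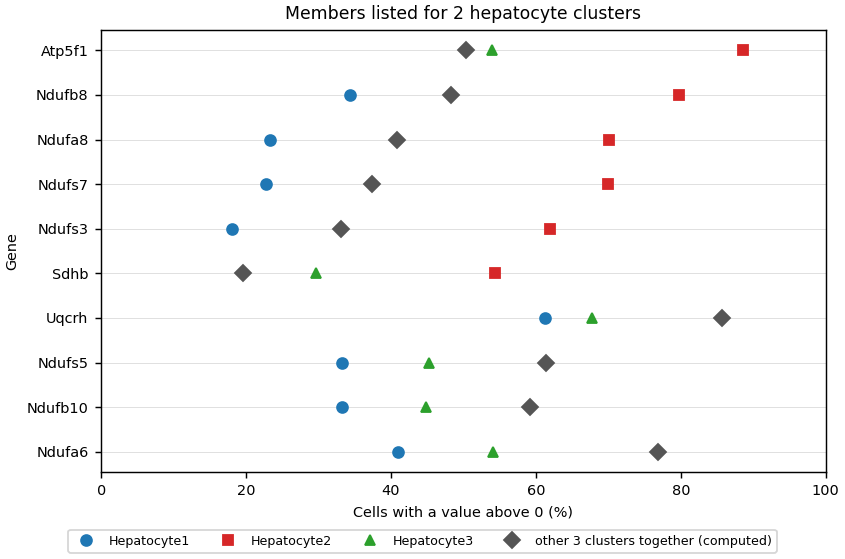
Cells with a value above 0 (x axis, percent) for the 10 members listed for a pair of hepatocyte clusters (y axis), in Hepatocyte1 (circles), Hepatocyte2 (squares), Hepatocyte3 (triangles) and, computed, the other 3 clusters together (diamonds). Of the 3 values plotted per gene, that of Hepatocyte1 is the lowest in all 8 genes listed for it, and that of Hepatocyte2 the highest in the 6 genes listed for it.

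Ndufs7, Ndufs3, Ndufa8 and Ndufb8 were listed for both Hepatocyte1 and Hepatocyte2, on opposite sides of the average of the other 3. Ndufs7 had 22.7% in Hepatocyte1, 69.9% in Hepatocyte2 and 37.4% in the other 3 clusters together. Ndufs3 had 18.1%, 62.0% and 33.1% in the same order, and Ndufa8 had 23.3%, 70.1% and 40.9%. For Ndufb8 these shares were 34.3%, 79.7% and 48.3%. The mean of these genes was therefore above that of the other hepatocytes in the cluster with few positive cells and in the cluster with many.

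Ndufa6, Ndufs5, Ndufb10 and Uqcrh were listed for Hepatocyte1 and Hepatocyte3. Ndufa6 had 41.0% in Hepatocyte1, 54.1% in Hepatocyte3 and 76.8% in Hepatocyte2, Hepatocyte4 and Hepatocyte5 together. Ndufs5, an accessory subunit on the intermembrane side, had 33.3%, 45.2% and 61.3%, and Ndufb10 had 33.2%, 44.9% and 59.2%. Uqcrh had 61.2%, 67.8% and 85.7%. Hepatocyte3 thus stood between Hepatocyte1 and the average of the remaining clusters for all 4, and its small gap to the other hepatocytes sets it against a pool in which Hepatocyte1 is the largest part.

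Sdhb and Atp5f1 were listed for Hepatocyte2 and Hepatocyte3. Sdhb had 54.4% and 29.6% there and 19.6% in Hepatocyte1, Hepatocyte4 and Hepatocyte5 together. Atp5f1 had 88.6% and 54.0%, and 50.4% in the other 3. The remaining clusters are averaged in these values, so 1 of them can be higher or lower than the average.

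Sdha and Cox6b2 were the only members in the table of all cells, whose values may be batch-integrated. Of the 385 genes listed for Hepatocyte4 in both tables, the share in the cluster differed between the tables for 378, by a median of 13.9 percentage points, so values of the 2 tables are not compared. Sdha was listed for 3 of the 12 clusters. In the cluster named HSC / fibroblast (hepatic stellate cells and fibroblasts) it had a value in 84.2% of the cells, against 39.0% of all other cells. This cluster made up 0.171% of the cells by the fitted sizes, so its shares rest on very few cells. In Hepatocyte4 it had 81.4% against 30.9%, the same direction as in the hepatocyte table. In Kupffer cells, the resident macrophages of the liver, the shares were nearly equal, at 39.7% and 39.1%. Over the other 9 clusters together the computed share was 30.5%. Of all 1755 genes of this table, 30.5% were listed for HSC / fibroblast, 25.2% for Hepatocyte4 and 28.4% for Kupffer cells. All 6 Kupffer cell markers were listed for Kupffer cells, with shares between 75.5% and 95.4%, but they also had a value in 17.1% to 28.2% of all other cells. A share in this table can therefore not be read as the share of cells that express a gene. The cluster named HSC / fibroblast listed 3 of 4 stellate and fibroblast markers and also 3 of 4 endothelial markers.

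Cox6b2 (chr7:4751792-4753094), an isoform of a cytochrome c oxidase subunit best known from the testis, was listed for the cluster named Red blood cell, as were 18.2% of the genes of the table. It had a value in 45.0% of these cells, which made up 0.708% of all cells, and 28.4% of all other cells, just above the highest share of a Kupffer cell marker outside its cluster. None of the 5 red blood cell markers was listed for any cluster, so the name of this cluster could not be checked.

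The members encode short transcripts. The longest annotated transcript had a median of 875 nucleotides and 134 coding codons over the 57 members, against 3118 nucleotides and 470 codons over the 1599 annotated genes of the hepatocyte table. Within the clusters with most members the difference was smaller, because all genes listed for them also had shorter medians than the whole table. In Hepatocyte1 the median was 781 nucleotides for 39 members and 918 for all listed genes. In Hepatocyte2 it was 1142 and 1240, and in Hepatocyte3 770.5 and 1364. The 4 members of Hepatocyte4 were longer, with a median of 2816.5 nucleotides against 3431 for all genes listed for it, and Uqcrc2, the member of Hepatocyte5, had 1896. The lowest member value in Hepatocyte4 (2674) was above the median of every other cluster's members. Droplet 3′ libraries count the end of each transcript, and the part of transcript length in the shares was not tested.

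Other genes of mitochondrial energy metabolism were drawn from lists of 45 genes, of which 17 were in the hepatocyte table. The citrate cycle list, whose products feed complexes I and II, had 8 of 15 genes listed, 6 of them for Hepatocyte4. All 6 had a higher share there, as did 878 of the 880 genes listed for this cluster. Ogdh (oxoglutarate dehydrogenase) had a value in 55.9% of Hepatocyte4 cells and 12.1% of the others, and Suclg2 (a succinyl-CoA ligase subunit) in 61.4% and 17.9%. Dld, Pdhb and Pdha1 of the dehydrogenase complexes had 41.7% against 10.2%, 37.6% against 8.6% and 29% against 5.8%. Sdha and Sdhc, whose complex is part of this cycle, were listed for the same cluster, for which 54.7% of all genes were listed. Fh1 (fumarase) was listed for Hepatocyte1 with 11.4% against 32.6%, and Suclg1 for Hepatocyte3 with 43.8% against 44.0%.

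Of 5 electron carrier genes, 3 were listed. Cycs, the gene of cytochrome c, had 42.4% in Hepatocyte3 against 40.5%, and Etfb, which passes electrons from fatty acid oxidation, had 65.1% against 58.6% in the same cluster. Etfdh, which hands these electrons to ubiquinone, had 53.9% in Hepatocyte4 against 16.3%. Of 17 inner membrane and related genes, 6 were listed. Uqcc2 and Uqcc3, assembly factors of complex III, followed the members in Hepatocyte1, with 10.0% against 28.3% and 14.1% against 33.6%. Slc25a3, the phosphate carrier that supplies ATP synthase, had 81.4% in Hepatocyte4 against 37.5%. None of 8 coactivators and factors that act on genes of mitochondrial function, Nrf1 and Gabpa among them, was listed.

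Because most members were listed together for Hepatocyte1, their promoters were searched for short motifs known from nuclear genes of the respiratory chain. RefSeq windows on GRCm38.p6, from 250 bases before to 50 bases after each start, were found for 50 of the 58 members, 1 of them through an older symbol. They were not given for Atp5a1, Cox17, Cox4i1, Cox6c, Ndufb9, Sdhc, Uqcrc2 and Uqcrq. Each motif was searched on both strands, and no sites of different motifs overlapped in the member windows. The YY1 motif (AAGATGGCG) was in 14% of the members (7 genes) and 1.64% of all 27025 genes with a window. The ETS motif (CCGGAAGT) was in 10% (5 genes) against 4.31%, the NRF1 palindrome in 4% (2 genes) against 1.07% and the CRE motif (TGACGTCA) in 4% against 2.03%. The GC box (GGGCGG) was in 44% against 38.2% and the TATA box (TATAAA) in 8% against 15.7%. A match is a run of letters and not a site shown to bind a factor.

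Of the 7 members with the YY1 letters, 6 were listed for Hepatocyte1 and Atp5j for Hepatocyte3. They were found in 17.6% of the 34 members with a window listed for Hepatocyte1, 7.53% of all 146 genes with a window listed for this cluster, and 3.56% of the 1293 genes of the hepatocyte table with a window. In 6 of the 7 the letters lay after the start of transcription, and in 5 the ATG within them is an annotated start codon, so the letters there overlap the start of the coding sequence. The sites are shown 5′ to 3′ on the strand of the gene, with 30 bases each and the motif in capitals.
Ndufs7 (chr10:80249463-80249492, plus strand): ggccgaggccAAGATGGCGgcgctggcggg
Ndufs4 (chr13:114388045-114388074, minus strand): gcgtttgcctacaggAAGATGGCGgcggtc
Ndufs6 (chr13:73328433-73328462, minus strand): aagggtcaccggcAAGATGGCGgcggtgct
Ndufc1 (chr3:51408914-51408943, minus strand): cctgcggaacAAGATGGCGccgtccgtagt
Ndufaf8 (chr11:120098934-120098963, plus strand): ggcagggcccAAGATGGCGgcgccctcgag
Atp5j2 (chr5:145191499-145191528, minus strand): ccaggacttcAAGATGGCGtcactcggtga
Atp5j (chr16:84835045-84835074, minus strand): aagtgtaggaAAGATGGCGgagtcttagct
In Atp5j the letters lay 88 bases before the start given for that window, but inside the annotated span of the gene (chr16:84827866-84835625). The ATG in Ndufaf8 and Atp5j is not an annotated start codon.

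The ETS and NRF1 letters were in other members, so no gene carried the YY1 letters together with either. Sites of Ndufs3, Uqcrh and Atp5h for ETS and of both genes for NRF1 are shown in the same way, with the motif in capitals, which for ETS is on the opposite strand.
Ndufs3 (chr2:90904703-90904732, minus strand): tgcacatttccACTTCCGGtccgtgccctt
Uqcrh (chr4:116075063-116075092, minus strand): gagtatgccgcACTTCCGGccaggtcgccg
Atp5h (chr11:115419940-115419969, minus strand): ccaaggagagaACTTCCGGcaactctcttc
Atp5g2 (chr15:102671070-102671099, minus strand): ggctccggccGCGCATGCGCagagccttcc
Ndufa11 (chr17:56717692-56717721, plus strand): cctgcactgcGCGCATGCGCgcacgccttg
Ndufs3 and Ndufs7, which carry different motifs, were both listed for Hepatocyte1 with a lower share and for Hepatocyte2 with a higher one. Ndufa11 had 21.8% in Hepatocyte1 against 49.1%, and Atp5h and Atp5g2 were listed for Hepatocyte3 alone. The share of G and C in the windows had a median of 59.0% for the members and 52.7% for all genes.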

How the data were processed

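Hepatocytes of 1 PBS-treated and 1 rIL-33-treated sample were profiled by droplet scRNA-seq. Reads were aligned to mm10 with Cell Ranger by the authors, who with Seurat removed cells with over 3000 or under 200 genes or over 50% mitochondrial genes, the upper gene limit serving against potential doublets, scaled each cell to 10000, clustered the cells and listed markers for each cluster. From the authors' deposited tables, the fractions of cells with a value above 0 inside and outside a cluster were used, printed as percentages. The deposited log2 fold changes, p-values and adjusted p-values are the authors' own comparisons and were not used, apart from checking the limit of listing. Tables with 1 library per condition, pooled, allow no test. The depth of each sample is unknown, so no interval is given.

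No doublet caller was run here. Cluster sizes were fitted by least squares to genes listed for several clusters, after a test on simulated data. The hepatocyte table has 7 rows with gene names stored as dates, which match no member. Annotation was GENCODE M21, with Atp5md matched by its older name, and RefSeq promoters. The values of 1 listed gene outside the members are not reported here. Near-identical copies of members elsewhere in the genome were not examined.

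The members and lists were chosen with earlier results of these data known. Named genes were those listed for several hepatocyte clusters, those listed for Hepatocyte2, Hepatocyte4 or Hepatocyte5, the member of each complex with the largest difference in each direction per cluster, and complex II; the others in the text were chosen after their values were seen. Alternatives were rows with a higher share only, rows at least 5 percentage points apart, the table of all cells, subunits only, other rows for the cluster sizes and a shorter promoter window. Python 3.11.15, NumPy 2.4.6, pandas 2.3.3, SciPy 1.17.1 and matplotlib 3.10.9 were used.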

Additional observations from a re-analysis of the deposited data

How the results depend on the processing

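No paired analysis was possible because each condition had 1 library and the tables pool both. Counting only rows with a higher share in the cluster left 0 members for Hepatocyte1 and 8 for Hepatocyte3, and counting only rows at least 5 percentage points apart left 0 for Hepatocyte3. Of the 7 members with a lower share in Hepatocyte3, 0 were lower by at least 5 points, whereas all 39 of Hepatocyte1 were. In the table of all cells, which may rest on fewer genes, 0 members were listed for Hepatocyte1, 0 for Hepatocyte2, 0 for Hepatocyte3, 1 for Hepatocyte4 and 0 for Hepatocyte5. The member of Hepatocyte4 was Sdha, so its difference of 50.5 percentage points is the value of 1 gene. It is taken against all other cells and not against the other hepatocytes. Without the assembly factors the median difference in Hepatocyte3 was 0 percentage points. Rows at least 10 points apart gave 10.2% for the size of Hepatocyte3. From 100 bases before the start, 1 member held the CRE motif. With only rows of a higher share counted, the order of the clusters changed. Hepatocyte1 went from the most members to the fewest, while Hepatocyte2 kept 7, Hepatocyte4 kept 4 and Hepatocyte5 kept 1. The causes of these changes were not tested. The other 40 alternatives kept their values within the limits set. Leaving out a library was not possible in pooled tables. Unknown depth per cell limits every share: a difference between clusters cannot be set at equal depth.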

Other observations

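Genes that act beside ATP synthase were also listed outside the hepatocytes, in the table of all cells. Atpif1, the inhibitor that keeps ATP synthase from running in reverse, had a value in 96.3% of the cells of the cluster named Red blood cell and 37.2% of all other cells. In B cells it had 73.7% against 36.8%, in HSC / fibroblast 73.7% against 37.5% and in T cells 49.3% against 37.4%. In Kupffer cells both shares were close, at 41.1% and 37.5%. Slc25a4, an ADP/ATP carrier of the inner membrane, had 78.9% against 11.4% in HSC / fibroblast, 48.0% against 11% in T cells and 40.5% against 10.9% in B cells. Both genes were absent from the lists of the 5 hepatocyte clusters. The HSC / fibroblast cluster made up 0.171% of the cells and the Red blood cell cluster 0.708%, so their shares rest on few cells. As stated for the Kupffer cell markers, a share in this table cannot be read as the share of cells that express a gene. Of its 1755 genes, 511 were listed for B cells and 598 for T cells. Only 27 and 17 of these had a lower share in the cluster, so a listing with a higher share was common there. These values have no replicates and were not tested.

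Slc25a20, the carnitine and acylcarnitine carrier that brings fatty acids to oxidation, was listed for Hepatocyte4, with 39.2% against 7.3%, and for Hepatocyte5, with 54.3% against 12.5%. Chchd2 and Chchd10, small proteins of the intermembrane space, were listed for Hepatocyte1 and Hepatocyte3 with shares a little lower in the cluster. Chchd2 had 91.0% against 94.5% in Hepatocyte1 and 91.4% against 92.7% in Hepatocyte3, and Chchd10 had 89.4% against 91.4% and 88.6% against 90.5%.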
